A study of Homo sapiens with 27 samples.

Results

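The core spliceosome components are the proteins that build the machine which removes introns from pre-mRNA. The set holds 51 genes, chosen by their Ensembl gene IDs from a list of snRNP proteins and associated factors. The series holds values of 16733 genes. Of the 51, 10 (SF3B3, SF3A2, SNRPA, SNRPD1, PRPF31, CDC5L, DHX16, AQR, XAB2 and LSM2) were not analysed here, and 41 had values. One of the 41, ISY1, lay under the expression filter, at log2 signals between 5.26 and 5.51 in the 9 samples, and 40 were tested.

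RNA of A549 cells, a lung adenocarcinoma line, was measured on HTA 2.0 junction arrays in 3 conditions. Cells were transfected with an siRNA against SRSF1, transfected with a scramble siRNA, or given Lipofectamine, the transfection vehicle, alone. SRSF1 is an SR protein that binds exons and helps to recruit the spliceosome. Each condition had 3 biological replicates, and each of these was hybridized 3 times, which makes 27 hybridizations and, after averaging, 9 samples. The labels do not name separate cultures, so the p-values measure the spread between these samples of 1 cell line. The median log2 signal of an array lay between 6.23 and 6.33 in all 27. SRSF1 itself and the marker genes of A549 cells were not analysed here, because the gene IDs could be named for the members alone, and the depth of silencing was therefore not checked. In bulk RNA, a lower signal per cell and a loss in some of the cells cannot be told apart.

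As background, the spliceosome assembles anew on each intron. The U1 snRNP binds the 5′ splice site, SF1 and the U2AF heterodimer mark the branch point and the 3′ splice site, and the U2 snRNP then takes the branch point. The U4/U6.U5 tri-snRNP joins as a unit, the PRP19 complex takes part in activation, and helicases of the DEAH family drive the catalytic steps and the release of the mRNA. All of the snRNPs except U6 carry a ring of Sm proteins, while U6 carries the related LSM ring.

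The array reports an alternative splicing event as signals of 3 paths, which are the 2 alternatives (path 1 and path 2) and the part shared by both (the reference path). The expression of a gene was taken as the mean log2 signal of its reference paths. A gene was tested where its highest sample passed 5.77, the 25% quantile over all reference paths. All 40 tested members were above this level in every sample, the lowest value being 6.14, so no member entered the test through 1 condition alone. Between samples of a condition the members had a median SD of 0.06 on the log2 scale, against 0.07 over all genes tested. A gene is called changed below at a Benjamini-Hochberg adjusted p under 0.05 in limma.

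With SRSF1 siRNA, most core spliceosome genes were less expressed than with scramble siRNA. Of the 40 members, 26 fell (65%), where 27% of all 12545 genes tested fell, and 7 rose (17.5%), where 28.5% of all genes rose. The members' log2 changes had a median of -0.23 and ran from -2.31 to 0.47, while the median over all genes was 0.04. In 22 members (55%) the 3 SRSF1 siRNA samples were below all 6 control samples, which was so in 22.8% of all genes. In 5 members (12.5%) they were above all 6, against 25.5% of all genes. The count of members that rose was 4 without the third SRSF1 siRNA replicate, and the count that fell stayed between 24 and 26 whichever sample was left out.

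**Figure D1:**
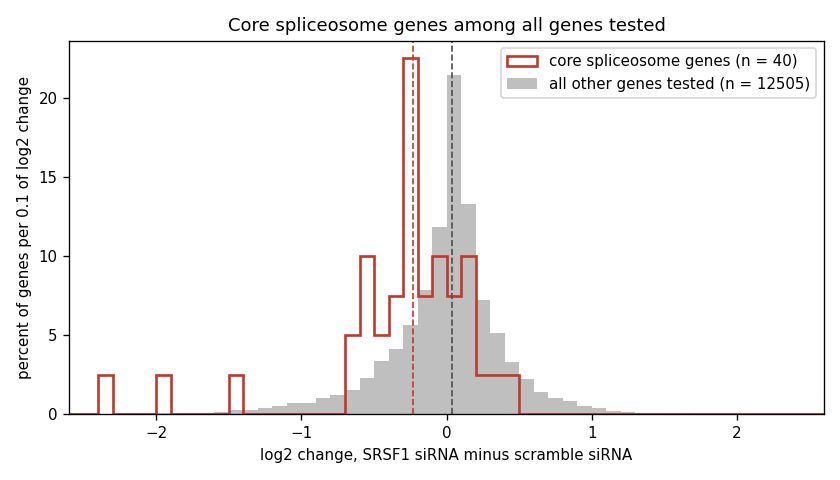
Distribution of the log2 change in expression, SRSF1 siRNA minus scramble siRNA, in percent of genes per 0.1 of log2 change, for 40 core spliceosome genes (red outline) and 12505 other genes tested (grey), with dashed lines at the medians; 2 of the other genes lie outside the axis. The median of the members is at -0.23 and that of the other genes at 0.04, and 3 members lie below -1.

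Against Lipofectamine alone, 20 members fell with SRSF1 siRNA (50%, against 24.1% of all genes) and 8 rose (20%, against 27.7%). The median log2 change of the members was -0.16 in this comparison, and 0.03 over all genes. The count of members that rose was 5 without the second SRSF1 siRNA replicate and also 5 without the first Lipofectamine replicate. Both comparisons use the same SRSF1 siRNA samples, so the values are given side by side and not as independent measurements.

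The largest falls were in SNRPC, PLRG1 and SF3A3, which belong to 3 different particles. They were the only members, 7.5% of those tested, that fell more than 2-fold, compared with 2.74% of all genes. SNRPC (ENSG00000124562) encodes the C protein of the U1 snRNP, which stabilises pairing of U1 snRNA with the 5′ splice site. Its log2 signal was 6.75, 6.75 and 6.74 in the SRSF1 siRNA samples, against 9.06, 9.16 and 8.96 with scramble siRNA and 8.72, 8.72 and 8.75 with Lipofectamine. The SRSF1 siRNA samples lay far below all controls and close to each other. The log2 change from scramble siRNA was -2.31 ± 0.05 (SE, n = 3 each), a 4.97-fold fall with a limma adjusted p of 4.99e-11, which ranked 9 among the falls of all genes. From Lipofectamine it was -1.99 ± 0.05, or 3.96-fold. The gene is measured by 2 distinct reference paths, which changed by -2.65 and -1.97 from scramble siRNA.

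PLRG1 (ENSG00000171566) encodes a WD-repeat protein of the PRP19 complex. Its log2 signal was 7.05, 7.10 and 7.02 with SRSF1 siRNA, against 8.98, 9.12 and 8.98 with scramble siRNA and 8.71, 8.89 and 8.80 with Lipofectamine. The conditions did not overlap, and the fall from scramble siRNA was 3.91-fold (log2 change -1.97 ± 0.06, limma adjusted p = 3.29e-10). It ranked 22 among the falls of all genes. All 11 distinct reference paths of the gene, from whose mean it was called, were lower, by log2 changes between -2.19 and -1.59. Of its 30 distinct paths of any kind, 20 were lower and 10 higher, by up to 0.46. Over the 20 alternative settings the log2 change of the gene lay between -2.07 and -1.32.

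SF3A3 (ENSG00000183431) encodes a subunit of SF3A, the complex that is needed to form the mature U2 snRNP. Its log2 signal was 8.005, 8.038 and 8.001 with SRSF1 siRNA, against 9.41, 9.56 and 9.46 with scramble siRNA and 9.07, 9.18 and 9.25 with Lipofectamine. The fall from scramble siRNA was 2.76-fold (log2 change -1.46 ± 0.06, limma adjusted p = 1.45e-09). Its 5 distinct reference paths fell by similar amounts, between -1.63 and -1.34 on the log2 scale. Of its 18 distinct paths of any kind, 14 were lower and 4 higher, by up to 0.07. Over the alternative settings the log2 change of the gene lay between -1.50 and -0.95, and so was not always over 2-fold. SF3A1, the partner subunit that was also measured, had a log2 change of -0.03 ± 0.04 (adjusted p = 0.554), with a signal of 9.29 ± 0.02 in SRSF1 siRNA samples and 9.32 ± 0.02 in scramble siRNA samples (SD, n = 3 each).

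**Figure D2:**
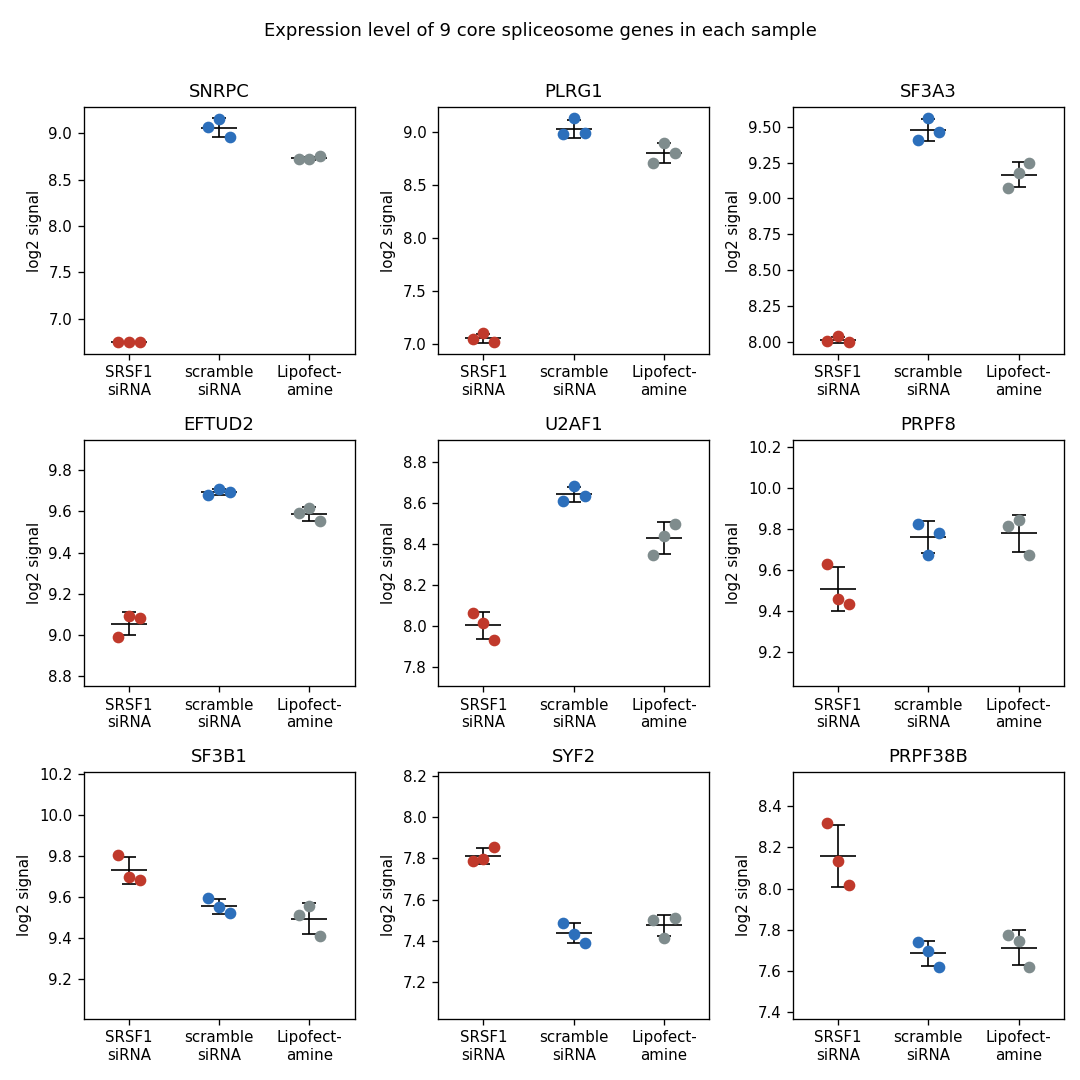
Expression level (log2 signal, mean of the reference paths) of 9 core spliceosome genes in each of the 9 samples, in the order SRSF1 siRNA, scramble siRNA and Lipofectamine; points are samples, the wide tick is the mean and the bar 1 SD, and each panel has its own axis. SNRPC, PLRG1 and SF3A3 lie more than 1 log2 unit lower with SRSF1 siRNA than in every control sample, while the panels of PRPF8 and SF3B1 show much smaller gaps.

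The 250 bases before the annotated start of these 3 genes are shown next to those of PRPF38B and SYF2, the members with the largest rises, to let the regulatory sequence of members that moved in opposite directions be compared. They are RefSeq sequences of build GRCh38.p14, and capitals mark CCGGAAG, the core recognised by many ETS factors, on either strand (read as CTTCCGG on the other strand; in SNRPC the matches of both strands overlap). SNRPC is at chr6:34757255-34757504 on the plus strand, PLRG1 at chr4:154550401-154550650 on the minus strand, SF3A3 at chr1:37990023-37990272 on the minus strand, PRPF38B at chr1:108692060-108692309 on the plus strand and SYF2 at chr1:25232503-25232752 on the minus strand.
SNRPC: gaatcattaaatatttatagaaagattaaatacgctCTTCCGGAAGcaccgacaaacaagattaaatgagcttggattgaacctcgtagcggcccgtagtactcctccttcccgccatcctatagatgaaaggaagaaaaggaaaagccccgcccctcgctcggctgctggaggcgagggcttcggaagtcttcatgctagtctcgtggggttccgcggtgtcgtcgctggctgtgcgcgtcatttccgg
PLRG1: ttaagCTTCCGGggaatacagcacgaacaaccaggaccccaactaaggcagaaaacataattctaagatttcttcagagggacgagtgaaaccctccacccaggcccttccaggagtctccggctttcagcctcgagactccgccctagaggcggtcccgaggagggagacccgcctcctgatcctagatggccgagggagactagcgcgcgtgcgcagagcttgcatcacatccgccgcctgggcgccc
SF3A3: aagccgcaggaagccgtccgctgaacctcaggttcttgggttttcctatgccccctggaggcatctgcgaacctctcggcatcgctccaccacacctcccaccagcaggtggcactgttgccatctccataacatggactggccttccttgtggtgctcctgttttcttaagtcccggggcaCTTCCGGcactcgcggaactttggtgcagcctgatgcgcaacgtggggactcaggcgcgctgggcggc
PRPF38B: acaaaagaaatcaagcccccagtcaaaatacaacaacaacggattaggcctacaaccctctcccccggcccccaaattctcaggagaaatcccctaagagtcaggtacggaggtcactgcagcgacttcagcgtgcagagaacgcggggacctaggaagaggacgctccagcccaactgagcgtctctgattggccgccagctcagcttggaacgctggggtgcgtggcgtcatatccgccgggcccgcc
SYF2: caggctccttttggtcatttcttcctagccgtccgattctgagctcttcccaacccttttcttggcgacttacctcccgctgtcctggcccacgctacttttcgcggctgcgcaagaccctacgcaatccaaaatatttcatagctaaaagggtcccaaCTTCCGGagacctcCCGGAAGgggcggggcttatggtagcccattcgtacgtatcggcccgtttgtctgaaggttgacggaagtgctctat

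The 3 members that fell hold a match, at 214 and 211 bases before the start in SNRPC, 245 in PLRG1 and 68 in SF3A3. SYF2, which rose, holds one at 91 and one at 77 bases, and PRPF38B holds none in this window. Of the 51 members, 47 had an upstream sequence in the RefSeq table, and 25 of the 47 (53.2%) held the motif, compared with 10.2% of the 27305 genes in the table. The motif stood before 13 of 24 members that fell (54.2%) and 4 of 7 that rose (57.1%). The sequence CCAAT was found, on either strand, in 16 of the 47 (34.0%) and in 37% of all genes, and TATAAA in 1 of the 47 (2.13%), that of SNRPC, and in 13% of all genes. The 27305 genes include many that were not tested here, so the members are set against an unlike group and no enrichment is read. A match is a description of the letters and not of a bound factor, and the motifs and the genes shown were chosen with the members' values known.

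All 10 measured members of the U4/U6.U5 tri-snRNP were called lower against scramble siRNA, where 27% of all genes were, with log2 changes between -0.64 and -0.16 and a median of -0.35. All 10 were also called lower against Lipofectamine, where 24.1% of all genes were, with a median of -0.27. Of the calls against Lipofectamine, 3 were lost with all paths averaged: DDX23 (-0.05, adjusted p = 0.473), LSM4 (-0.13, 0.0667) and SNRNP200 (-0.11, 0.0568). DDX23 was also not called against Lipofectamine without any 1 of the SRSF1 siRNA replicates (adjusted p up to 0.112) or without the second (0.0947) or the third Lipofectamine replicate (0.0992). SNRNP200 was not called there without the second SRSF1 siRNA replicate (0.0673) or the first Lipofectamine replicate (0.0533), and PRPF6 without the first SRSF1 siRNA replicate (0.0914). EFTUD2 (ENSG00000108883), the U5 GTPase, had the largest change from scramble siRNA. Its samples gave log2 signals of 8.99, 9.09 and 9.08 with SRSF1 siRNA, against 9.68, 9.71 and 9.70 with scramble siRNA and 9.59, 9.62 and 9.55 with Lipofectamine. The samples of the SRSF1 siRNA were below all others, with a log2 change of -0.64 ± 0.05 from scramble siRNA (limma adjusted p = 1.65e-07).

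USP39, a tri-snRNP protein without ubiquitin protease activity, changed by -0.58 ± 0.06 on the log2 scale (adjusted p = 3.33e-06). Its signals were 7.95, 8.01 and 7.88 with SRSF1 siRNA, against 8.63, 8.45 and 8.51 with scramble siRNA and 8.63, 8.75 and 8.72 with Lipofectamine. Both control conditions were clear of it, Lipofectamine the more so. PRPF3, a U4/U6 protein, gave 7.84, 7.79 and 7.63, against 8.26, 8.35 and 8.22 with scramble siRNA and 8.01, 8.13 and 8.02 with Lipofectamine, a log2 change of -0.52 ± 0.06 from scramble siRNA (adjusted p = 1.77e-05). Here the fall was smaller against Lipofectamine, at -0.30 ± 0.06.

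PRPF8 (ENSG00000174231), the scaffold of the catalytic centre, fell 1.19-fold. Signals of PRPF8 were 9.63, 9.46 and 9.43 with SRSF1 siRNA, against 9.82, 9.67 and 9.78 with scramble siRNA and 9.81, 9.85 and 9.67 with Lipofectamine. The SRSF1 siRNA samples stayed below the others, though narrowly at the closest pair, and the log2 change from scramble siRNA was -0.25 ± 0.07 (limma adjusted p = 0.0063). Its 10 distinct reference paths were all lower. The other members of the particle were LSM4 of the U6 ring (-0.41), the U5 protein PRPF6 (-0.36), the helicase DDX23, which displaces U1 (-0.35), SART1 (-0.28), PRPF4 (-0.22) and SNRNP200, the helicase that unwinds U4 from U6 (-0.16), as log2 changes from scramble siRNA. PRPF6 and LSM4 are each measured by 1 reference path. With all paths of each gene averaged in place of the reference paths, PRPF6 changed by -0.08 (adjusted p = 0.195) and SNRNP200 by -0.11 (adjusted p = 0.0522), so neither was called. SNRNP200 was also not called without the second (adjusted p = 0.0846) or the third SRSF1 siRNA replicate (0.0524) or without the first scramble siRNA replicate (0.0903).

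**Figure D3:**
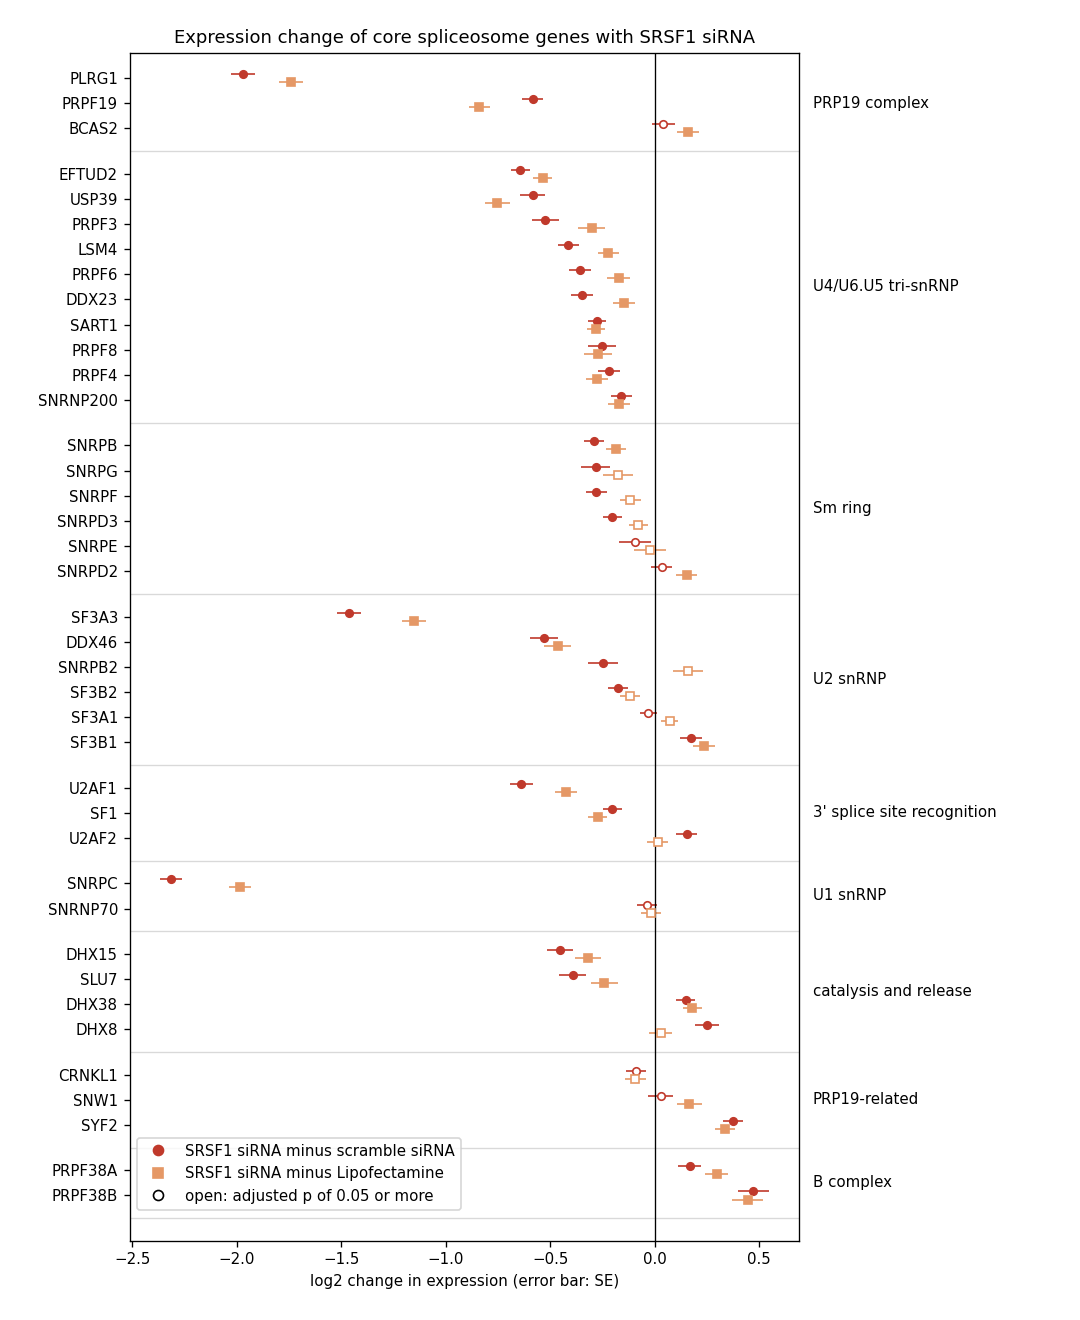
Log2 change in expression of the tested members reported by name, by particle or step, with SRSF1 siRNA minus scramble siRNA as circles and SRSF1 siRNA minus Lipofectamine as squares; bars are standard errors and open symbols have an adjusted p of 0.05 or more. All 10 tri-snRNP members lie to the left of 0 with filled symbols in both comparisons, while the catalytic and PRP19-related members lie on both sides.

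At the 3′ splice site the members did not move one way. U2AF1 (ENSG00000160201), the small U2AF subunit that reads the terminal AG of the intron, fell 1.56-fold. The gene gave log2 signals of 8.07, 8.02 and 7.93 with SRSF1 siRNA, against 8.61, 8.68 and 8.63 with scramble siRNA and 8.35, 8.44 and 8.50 with Lipofectamine. These ranges did not overlap, and the log2 change from scramble siRNA was -0.64 ± 0.05 (limma adjusted p = 7.81e-07). Its 6 distinct reference paths were all lower, although unequally, with log2 changes between -0.97 and -0.09. U2AF1 has a near-identical annotated copy in the human genome, and whether the probes separate the copies was not tested.

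U2AF2 (ENSG00000063244), the large subunit that binds the polypyrimidine tract, gave 10.35, 10.40 and 10.42 with SRSF1 siRNA, against 10.29, 10.28 and 10.15 with scramble siRNA and 10.33, 10.41 and 10.38 with Lipofectamine. It rose by 0.15 ± 0.05 on the log2 scale relative to scramble siRNA (limma adjusted p = 0.0226), while its change from Lipofectamine was 0.01 ± 0.05 (adjusted p = 0.83). The call against scramble siRNA was lost with each array centred on its median (adjusted p = 0.062), and without the second (0.0716) or the third SRSF1 siRNA replicate (0.0743) or the third scramble siRNA replicate (0.0938). SF1 (ENSG00000168066), the branch point binding protein, gave 8.44, 8.44 and 8.48, against 8.68, 8.62 and 8.67 with scramble siRNA and 8.74, 8.68 and 8.76 with Lipofectamine. It changed by -0.20 ± 0.04 on the log2 scale from scramble siRNA and by -0.27 ± 0.04 from Lipofectamine.

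Of the 6 U2 snRNP members tested, 4 fell and 1 rose against scramble siRNA, where 27% of all genes fell and 28.5% rose. Against Lipofectamine 2 fell and 1 rose, where 24.1% of all genes fell and 27.7% rose. Besides SF3A3, DDX46, the helicase that promotes the entry of U2, changed by -0.53 ± 0.07, with signals of 8.23, 8.26 and 8.09 with SRSF1 siRNA, against 8.79, 8.78 and 8.60 with scramble siRNA and 8.59, 8.73 and 8.65 with Lipofectamine. The SRSF1 siRNA samples were again below all controls (limma adjusted p = 2.12e-05). SF3B2 changed by -0.18 and SNRPB2, the U2 B″ protein, by -0.25 from scramble siRNA. Neither was called against Lipofectamine, with changes of -0.12 for SF3B2 (limma adjusted p = 0.0546) and 0.16 for SNRPB2 (0.0876). The call of SF3B2 against scramble siRNA was lost with all paths averaged (-0.09, adjusted p = 0.106) and that of SNRPB2 without the second scramble siRNA replicate (-0.17, adjusted p = 0.0558). SF3B1 (ENSG00000115524), which holds the branch point helix and is often mutated in cancer, rose. Its log2 signal was 9.81, 9.70 and 9.69 with SRSF1 siRNA, against 9.59, 9.55 and 9.52 with scramble siRNA and 9.51, 9.56 and 9.41 with Lipofectamine. The log2 change from scramble siRNA was 0.17 ± 0.05 (limma adjusted p = 0.0152), and it was not called without the first SRSF1 siRNA replicate (0.14, adjusted p = 0.0772) or with the median of the reference paths (0.09, adjusted p = 0.208).

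SNRNP70 (ENSG00000104852), a U1 protein that is contacted by SR proteins, gave 7.59, 7.61 and 7.71 with SRSF1 siRNA, against 7.66, 7.68 and 7.68 with scramble siRNA and 7.69, 7.61 and 7.65 with Lipofectamine. The conditions overlapped, and the log2 change was -0.04 ± 0.05 (limma adjusted p = 0.522).

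In the Sm ring, 4 of 6 tested proteins fell against scramble siRNA, where 27% of all genes did, and the other 2 were not called. SNRPB (ENSG00000125835), which encodes SmB and SmB′, gave 8.27, 8.31 and 8.25 with SRSF1 siRNA, against 8.59, 8.62 and 8.49 with scramble siRNA and 8.48, 8.47 and 8.44 with Lipofectamine. It was below all controls, with a log2 change of -0.29 ± 0.05 from scramble siRNA (limma adjusted p = 0.000222). SNRPG, SNRPF and SNRPD3 changed by -0.28, -0.28 and -0.20, and none of these was called against Lipofectamine. The 2 distinct reference paths of SNRPF went opposite ways from scramble siRNA, by -0.60 and 0.04. The highest reference path changed by 5e-04 in SNRPG and by 0.0031 in SNRPD3. With the sample number as a replicate block, SNRPG was called lower against Lipofectamine (-0.18, adjusted p = 0.0132). Other settings also called it there, among them the sample as a random block (0.0333), array centring (0.0431) and the 50% filter (0.046). Array centring also called SNRPF lower there (-0.13, adjusted p = 0.0482). SNRPD3 was not called against scramble siRNA with all paths averaged (-0.12, adjusted p = 0.0536). SNRPE and SNRPD2 had log2 changes of -0.09 and 0.03 from scramble siRNA, which did not pass the test, and SNRPD2 rose relative to Lipofectamine (0.15 ± 0.05, adjusted p = 0.0235). With all paths averaged that change of SNRPD2 was 0.01 (adjusted p = 0.822), and it was not called without the second (0.077) or the third SRSF1 siRNA replicate (0.0752) or the first Lipofectamine replicate (0.0635). Several Sm genes have processed pseudogenes, and cross-hybridization with these was not tested.

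In the PRP19 complex, PRPF19, its E3 ubiquitin ligase, fell together with PLRG1. PRPF19 gave 8.67, 8.71 and 8.75 with SRSF1 siRNA, against 9.36, 9.26 and 9.25 with scramble siRNA and 9.51, 9.52 and 9.61 with Lipofectamine. The log2 change was -0.58 ± 0.05 from scramble siRNA (limma adjusted p = 9.78e-07) and -0.84 ± 0.05 from Lipofectamine (5.34e-08), so the gap was wider to the vehicle. BCAS2, the third measured subunit, had a change of 0.04 ± 0.05 from scramble siRNA (adjusted p = 0.522). Of the related factors, CRNKL1 (-0.09) and SNW1 (0.03) were not called, and SYF2 rose. With the median of the reference paths CRNKL1 changed by -0.19 and was called lower (adjusted p = 0.0132). Against Lipofectamine, BCAS2 (0.16, adjusted p = 0.0228) and SNW1 (0.17, adjusted p = 0.0352) were called higher. The call of BCAS2 was lost without the first (0.0732) or the second SRSF1 siRNA replicate (0.0726) or the first Lipofectamine replicate (0.0809). The call of SNW1 was lost with array centring (0.067), with the median of the reference paths (0.0694), and without the second SRSF1 siRNA replicate (0.155) or the first (0.109) or the third Lipofectamine replicate (0.0551). SYF2 (ENSG00000117614) gave 7.79, 7.80 and 7.85 with SRSF1 siRNA, against 7.49, 7.43 and 7.39 with scramble siRNA and 7.50, 7.41 and 7.51 with Lipofectamine, a log2 change of 0.38 ± 0.05 from scramble siRNA (limma adjusted p = 2.72e-05). Its samples were above all 6 controls.

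Among the 4 tested factors of catalysis and release, 2 fell and 2 rose against scramble siRNA, where 27% of all genes fell and 28.5% rose. No common direction is read from so few genes. DHX15, the helicase that takes apart the spent spliceosome, gave 8.60, 8.60 and 8.46 with SRSF1 siRNA, against 8.92, 9.11 and 8.99 with scramble siRNA and 8.80, 8.94 and 8.88 with Lipofectamine, a log2 change of -0.45 ± 0.06 from scramble siRNA (limma adjusted p = 5.88e-05). SLU7, which acts in the choice of the 3′ splice site at the second step, changed by -0.39 ± 0.06. The DEAH helicases DHX8, which releases the mRNA, and DHX38, which acts before the second step, rose relative to scramble siRNA, DHX8 by 0.25 ± 0.06 and DHX38 by 0.15 ± 0.05. DHX38 gave 8.36, 8.42 and 8.46 with SRSF1 siRNA, against 8.30, 8.24 and 8.26 with scramble siRNA and 8.20, 8.23 and 8.26 with Lipofectamine, and so lay above all controls. DHX8 gave 8.81, 8.80 and 8.83 with SRSF1 siRNA, against 8.60, 8.48 and 8.60 with scramble siRNA and 8.70, 8.88 and 8.78 with Lipofectamine. It thus overlapped with Lipofectamine, from which it differed by 0.03 ± 0.06 (adjusted p = 0.703). The call of DHX38 was lost without the third SRSF1 siRNA replicate (adjusted p = 0.0649) and without the second scramble siRNA replicate (0.0523).

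The B complex proteins PRPF38A and PRPF38B both rose against scramble siRNA, where 28.5% of all genes did. PRPF38B (ENSG00000134186) had the largest rise of the members, with 8.32, 8.14 and 8.02 in SRSF1 siRNA samples, against 7.74, 7.70 and 7.62 with scramble siRNA and 7.78, 7.75 and 7.62 with Lipofectamine. All 3 were above all controls, although they were spread widely, and the log2 change was 0.47 ± 0.07 from scramble siRNA (limma adjusted p = 0.00013), a 1.39-fold rise. PRPF38A rose by 0.17 ± 0.06 (adjusted p = 0.0218), with 8.70, 8.72 and 8.71 in SRSF1 siRNA samples, against 8.52, 8.60 and 8.50 with scramble siRNA and 8.30, 8.44 and 8.50 with Lipofectamine. That call did not pass in 6 of 20 alternatives, 4 of them a left-out sample of SRSF1 siRNA (the second, 0.0627, or the third, 0.0527) or of scramble siRNA (the first, 0.0632, or the third, 0.0686).

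Most members were measured by several reference paths, and the spread among them is given as a description. Of the 40, 9 had 1 distinct reference path (U2AF2, SNRPB, SNRPB2, SNRPD2, SNRPE, PRPF6, PRPF19, BCAS2 and LSM4) and 31 had more. In 23 of these 31 all paths changed in 1 direction between SRSF1 siRNA and scramble siRNA. SF1 was one of the others, with 4 paths lower and 2 higher, between -0.54 and 0.16 on the log2 scale. The members were called from the mean of these same paths, which also share transcripts and samples, so their directions are not independent of the calls.

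The scramble siRNA alone was compared with Lipofectamine to see what transfection of an siRNA does to the same genes. Of the 40 members, 10 were higher with scramble siRNA (25%, against 11.1% of all genes) and 2 were lower (5%, against 9.02%). The median change of the members was 0.10 on the log2 scale, and that of all genes was -9e-04. Without the second scramble siRNA replicate 3 members were higher and 1 was lower, and without the first Lipofectamine replicate 5 were higher.

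SNRPB2 had the largest of these changes, with 8.60, 8.85 and 8.64 in scramble siRNA samples, against 8.15, 8.37 and 8.35 in Lipofectamine samples. The log2 change was 0.41 ± 0.07 (limma adjusted p = 0.00247), and the SRSF1 siRNA samples (8.44, 8.49 and 8.42) lay between both controls. With the replicate block SNRPB2 was called higher with SRSF1 siRNA than with Lipofectamine (0.16, adjusted p = 0.022), and USP39 was called lower with scramble siRNA than with Lipofectamine (-0.17, adjusted p = 0.0448). SNRPC rose by 0.33 ± 0.05 (adjusted p = 0.00123) and SF3A3 by 0.31 ± 0.06 (adjusted p = 0.00249) with scramble siRNA relative to Lipofectamine, and PLRG1 by 0.23 ± 0.06 (adjusted p = 0.0173). These scramble siRNA samples also serve in the comparison with SRSF1 siRNA. The call of PLRG1 did not pass without the second scramble siRNA replicate (adjusted p = 0.082) or without the first Lipofectamine replicate (0.0618). PRPF3, U2AF1, DDX23, LSM4, PRPF6 and SNRPF were also called higher with scramble siRNA, by 0.16 to 0.22, but none of these 6 calls passed without the second scramble siRNA replicate (adjusted p between 0.0544 and 0.143). Without the first Lipofectamine replicate PRPF3 (0.0877), U2AF1 (0.0535), DDX23 (0.0526) and PRPF6 (0.0889) were not called, and without the first scramble siRNA replicate PRPF3 (0.0529), LSM4 (0.0557) and SNRPF (0.129) were not. Without the third Lipofectamine replicate PRPF3 (0.0865), PRPF6 (0.0763) and SNRPF (0.141) lost the call, as PRPF6 and SNRPF did without the second SRSF1 siRNA (0.0532 and 0.0551) or the third scramble siRNA replicate (0.0549 and 0.0764). SNRPF also lost it without the third SRSF1 siRNA (0.0545) or the second Lipofectamine replicate (0.0609), and with the sample as a random block (0.233). With all paths averaged PRPF6 turned round to -0.0628 (adjusted p = 0.438). PRPF19 (-0.25 ± 0.05, adjusted p = 0.00449) and DHX8 (-0.22 ± 0.06, adjusted p = 0.0154) were lower, and DHX8 was not called without the second scramble siRNA replicate (adjusted p = 0.074).

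Splicing within the members was read from 190 events in the 41 genes, of which 87 in 31 genes passed the filter on all 3 paths. An event was called where path 1 and path 2 changed in opposite directions, by a test on the sum of their one-sided p-values. Of the events left out, 52 failed on path 1 alone and 42 on path 2 alone. Between SRSF1 siRNA and scramble siRNA, 10 of the 87 events (11.5%) were called, against 8.35% of the 25805 events tested on the array. They lay in 7 genes, and 4 of the 10 were events of PLRG1 that share paths. Requiring both one-sided p-values to pass on their own left 4 events called, all of PLRG1, which share paths and each passed the filter through 1 condition alone, so nothing is read from that count. Against Lipofectamine 8 events were called (9.2%, with 6.08% over the array), and between scramble siRNA and Lipofectamine 2 (2.3%, with 0.275%), both of PLRG1. Each of these 2 passed the filter through 1 condition alone, as did PLRG1 events 3 and 4 among the 8. No excess over the array is therefore read from these shares. The positions and types of these events were not used here, so they are named by their number in the file.

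The 4 called PLRG1 events shared 6 distinct paths and are not independent. In event 4, path 2 gave 8.46, 8.46 and 8.44 with SRSF1 siRNA, against 10.99, 10.94 and 10.85 with scramble siRNA and 10.69, 10.64 and 10.62 with Lipofectamine. Path 1 gave 5.88, 5.95 and 5.88, against 5.29, 5.55 and 5.48 with scramble siRNA and 5.58, 5.76 and 5.60 with Lipofectamine. The bright path thus fell with the gene and the dim path rose, by log2 changes of -2.47 and 0.46 (each ± 0.08 SE, limma adjusted p = 1.97e-10). The dim path of events 3 and 4 was above the filter of 5.77 in SRSF1 siRNA samples alone, and that of events 2 and 5 in Lipofectamine samples alone. The filter therefore admitted these events through 1 condition, as it did 9 of the 87, and the direction of a path that passes in this way is fixed in part by the filter. The adjusted p of event 4 is thus a description and no support for a rise of its dim path. In 4 of the 10 called events, all of PLRG1, the rising path averaged below the filter with scramble siRNA. Outside PLRG1, 6 of 82 tested events were called, where 8.35% of all events tested on the array were. PLRG1 was set aside with its calls known and no gene was set aside on the array, so no difference is read from these shares. The 6 events outside PLRG1 had each path above the filter in more than 1 condition.

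The remaining called events lay in DDX46, EFTUD2, SART1, SF1, SNRNP200 and PRPF8. In SF1 event 12 the 2 paths diverged. Path 2 gave 7.72, 7.61 and 7.75 with SRSF1 siRNA, against 8.34, 8.17 and 8.16 with scramble siRNA and 8.32, 8.39 and 8.40 with Lipofectamine, and path 1 gave 10.12, 10.03 and 10.03, against 9.94, 9.84 and 9.93 with scramble siRNA and 9.90, 9.78 and 9.86 with Lipofectamine. Path 2 was lower and path 1 higher than in every control sample, with log2 changes from scramble siRNA of -0.53 and 0.16 (each ± 0.06, limma adjusted p = 0.00167). With both one-sided p-values required to pass on their own, this event was not called (limma adjusted p = 0.417). The reference path of this event changed by 0.06, while the mean over the reference paths of SF1 changed by -0.20.

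In DDX46 event 16, path 1 was higher with SRSF1 siRNA, at 7.84, 7.87 and 7.87, against 7.50, 7.55 and 7.54 with scramble siRNA and 7.54, 7.40 and 7.52 with Lipofectamine. Path 2 was lower, at 7.28, 7.18 and 6.90, against 7.55, 7.58 and 7.57 with scramble siRNA and 7.32, 7.74 and 7.45 with Lipofectamine. Both paths lay well above the filter in all samples and moved by 0.33 and -0.44 on the log2 scale from scramble siRNA (each ± 0.10, limma adjusted p = 5.06e-05). The reference path of this event changed by -0.39, while the mean over the reference paths of DDX46 changed by -0.53. This event was the closest to passing on both one-sided p-values apart from PLRG1 (adjusted p = 0.0963).

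EFTUD2 event 13 had the reverse arrangement. Its path 1 gave 9.47, 9.50 and 9.43 with SRSF1 siRNA, against 10.10, 10.19 and 10.15 with scramble siRNA and 9.99, 10.09 and 10.05 with Lipofectamine. Path 2 gave 9.04, 8.88 and 8.96, against 8.79, 8.69 and 8.81 with scramble siRNA and 8.66, 8.78 and 8.77 with Lipofectamine. Path 1 fell with the gene by -0.68 and path 2 rose by 0.20 on the log2 scale (each ± 0.07, limma adjusted p = 0.00132). In SART1 event 7, path 2 changed by -0.50 and path 1, at 5.93 to 6.11 with scramble siRNA and thus close to the filter, rose by 0.19 (adjusted p = 0.00164). With both one-sided p-values required to pass on their own, EFTUD2 event 13 (limma adjusted p = 0.377) and SART1 event 7 (0.414) were not called. SNRNP200 event 8 (adjusted p = 0.0238) and PRPF8 event 20 (adjusted p = 0.0272) had changes of 0.27 or less in either path. The call of SNRNP200 event 8 was lost without any 1 of 5 samples, the first and the third SRSF1 siRNA replicate and each scramble siRNA replicate (adjusted p up to 0.377), and that of PRPF8 event 20 without any 1 of 4, the second and the third SRSF1 siRNA replicate and the first and the second scramble siRNA replicate (up to 0.285).

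**Figure D4:**
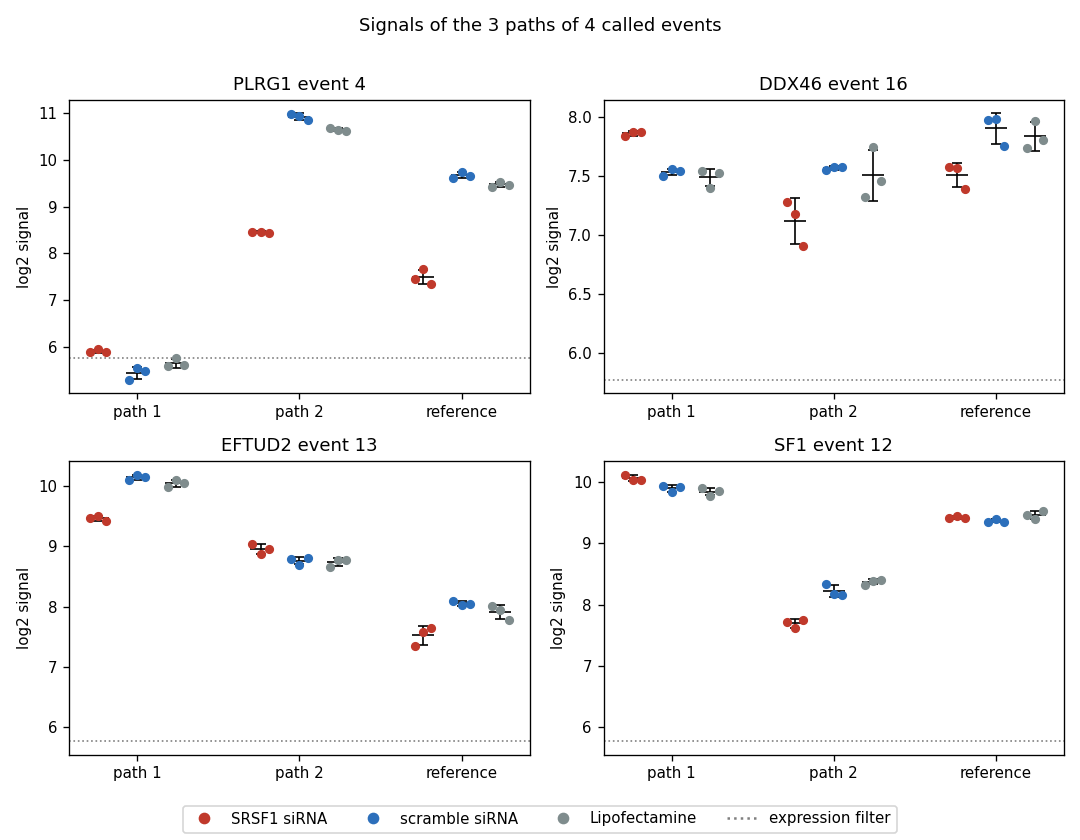
Log2 signals of path 1, path 2 and the reference path for 4 called events, with SRSF1 siRNA (red), scramble siRNA (blue) and Lipofectamine (grey) from left to right in each; points are the 3 samples, the wide tick is the mean, the bar 1 SD, and the dotted line the expression filter at 5.77. Path 1 of PLRG1 event 4 lies at this line, while both paths of DDX46 event 16, EFTUD2 event 13 and SF1 event 12 lie above it.

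Of the called events, PLRG1 event 4 was also called between the control conditions. With scramble siRNA relative to Lipofectamine its path 1 changed by -0.21 and its path 2 by 0.27 on the log2 scale (limma adjusted p = 0.0266). Its path 1 was below the filter in every sample of both conditions, and the SRSF1 siRNA samples alone admitted the event. No difference between the controls is therefore read from this call. In PLRG1 event 5 the changes were -0.68 and 0.27 (adjusted p = 0.00314), but its path 1 passed the filter through the Lipofectamine samples, where it is high, so this call is a description and no support for a difference. With the sample number as a replicate block, 4 member events in place of 2 were called between these conditions. Without the first scramble siRNA replicate 0 events were called by limma, where 13 of the 87 had an unadjusted p under 0.05 over all samples, and without the first SRSF1 siRNA or the third Lipofectamine replicate 1 was called. Events of SNRPC, the gene with the largest fall, could not be tested, since path 2 of each failed the filter; in event 1 it averaged 4.46 with SRSF1 siRNA, 5.08 with scramble siRNA and 5.05 with Lipofectamine. The paths of SNRPC above the filter fell with the gene, path 1 of event 1 to 7.20 with SRSF1 siRNA, against 9.86 with scramble siRNA and 9.61 with Lipofectamine.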

How the data were processed

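RNA of A549 cells was hybridized to HTA 2.0 arrays. Per the labels and the methods of the study, the authors mapped the probes to paths of splicing events. They corrected background, normalized all arrays by quantiles and summarized each path in aroma.affymetrix, with RMA named as the pipeline. The deposited values are log2 signals, 1 per path and hybridization. Each column carries a sample number and a replicate number in its label. The sources do not settle which of them is biological, and columns that share a sample number were treated as hybridizations of 1 biological replicate.

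The 27 hybridizations were averaged to 9 samples, and limma 3.58.1 (R 4.3.3, with the data.table package at version 1.17.8) was fitted with 1 coefficient per condition. Expression was the mean of the reference paths of a gene, and p-values were adjusted by Benjamini-Hochberg over the 12545 genes or 25805 events tested. Folds are differences of log2 signals brought back to a linear scale. The paths of an event entered 1 model with a shared spread. Same-numbered samples deviated together between conditions (correlations of 0.176 to 0.481 across genes, all over 0.1). The number may therefore pair the samples, which the labels do not state. The calls come from the fit without this pairing, and a fit with the number as a replicate block was an alternative. The other alternatives were single hybridizations with and without a random block, the other number as the replicate, array centring, 2 conditions alone, other summaries and filters, another event test, and each sample left out. The steps were tested on simulated data. The members and lists were chosen with earlier results of these data known. The members were accounted for by class; those described in full are the members among the 10 largest falls and rises that passed without overlap, SF3B1, U2AF1, U2AF2, SF1, PRPF8, SNRNP70 and SNRPB, the 4 largest called changes between the controls and the 8 events of smallest p. The other members complete the classes, and 1 member is in the counts but is not reported here by name. The other spliceosome and minor spliceosome gene lists, SRSF1 and the cell type markers were not analysed here, since 0 of the 16733 gene IDs matched the RefSeq table. The number of arrays limits the precision.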

Additional observations from a re-analysis of the deposited data

How the results depend on the processing

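Over 130 values of members and events and 2565 alternatives of them, 2402 kept direction and side of the threshold, 101 lost the call, 61 gained one and 1 turned round: PRPF6 between scramble siRNA and Lipofectamine changed by -0.0628 with all paths averaged. The cause was not tested. Every count of members that fell with SRSF1 siRNA stayed within 1.5 times under all alternatives.

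Event counts moved most. Between SRSF1 siRNA and scramble siRNA, 17 member events were called with 27 separate arrays, 16 with the sample as a random block, 19 with the replicate number as the replicate, 21 without a filter, 5 with the 50% filter and 4 with the larger one-sided p. Against Lipofectamine they were 14 with the replicate number, 5 with the 50% filter and 1 with the larger p. Between the controls, 6 were called with the replicate number, 1 with 2 conditions alone, 4 with the replicate block, and 0 with the 50% filter or the larger p in limma, beside 13 at an unadjusted p under 0.05 in the fit described above. Members higher with scramble siRNA than with Lipofectamine were 18 with 27 separate arrays, 19 with the replicate number and 6 with all paths averaged, and members lower were 5 with separate arrays, 4 with the random block and 4 with the replicate number. With the replicate block 14 member events were called between SRSF1 siRNA and scramble siRNA and 11 between SRSF1 siRNA and Lipofectamine, in place of 10 and 8. The block changed the calls of SNRPB2 and SNRPG against Lipofectamine and of USP39 between the controls, which were gained, and no other call of a member's expression.

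With 1 sample left out, members higher with SRSF1 siRNA were 4 to 7 against scramble siRNA and 5 to 9 against Lipofectamine, and between the controls 3 to 10 were higher, 1 to 3 were lower and 0 to 2 events were called. The averaging of distinct reference paths was chosen after seeing the data and gave 26 members lower and 7 higher. Dim paths near the filter limit the events.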
